A study of Ovis aries with 6 samples.

Results

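The Toll-like receptors and their co-receptor CD14 were examined in cultured sheep (Ovis aries) corneal epithelial cells and cultured sheep skin epidermal stem cells. Members were the gene probes of the array whose gene name is CD14 or TLR1 to TLR10, or whose description names a Toll-like receptor or the CD14 antigen. This gave 22 probes of 11 genes, out of 15008 probes that stand for 14224 genes and unnamed transcripts. There were 3 samples of each cell type, described as cell lines in the series' design text, and each was hybridised to 1 array with the dye Cy3 alone. The labels give no genotype, age, animal or treatment for either group, and all cells were adherent cells taken up with trypsin before RNA extraction. Nothing in the labels says that the 3 samples of a group came from separate animals or cultures, so the p-values cover only the spread among these samples, and that spread may be technical. The series compares the expression of the corneal cells with that of the epidermal stem cells.

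Toll-like receptors are membrane proteins that recognise microbial molecules, and some also respond to host molecules released from damaged tissue. TLR1, TLR2, TLR4, TLR5, TLR6 and TLR10 act mainly at the cell surface, where TLR2 pairs with TLR1 or TLR6 to bind bacterial lipoproteins, TLR4 binds lipopolysaccharide together with LY96, and TLR5 binds flagellin. TLR3, TLR7, TLR8 and TLR9 act in endosomes and bind nucleic acids, in the case of TLR3 RNA duplexes. CD14, a protein anchored to the outer membrane leaflet or shed from it, hands lipopolysaccharide to TLR4 and lipoproteins to TLR2. Epithelia of the skin and the eye surface are known to carry several of these receptors, and most of them signal through the adaptor MYD88 to NF-kB.

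TLR2, TLR3, TLR4 and CD14 rest on array probes of 60 bases, and the sequences below show how far the probes of a gene are separate measurements. Capitals mark bases that a probe shares with the other probe printed for its gene, and a probe wholly in lower case shares none of its ends with another one printed. CD14 probe 1 is in lower case only because CD14 probe 2, which shares 59 bases with it, is not printed.
TLR2 probe 1: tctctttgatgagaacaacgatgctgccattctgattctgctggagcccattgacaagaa
TLR2 probe 2: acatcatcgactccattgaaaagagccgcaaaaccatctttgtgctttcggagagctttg
TLR4 probe 1: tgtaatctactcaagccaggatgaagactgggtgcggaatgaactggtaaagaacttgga
TLR4 probe 2: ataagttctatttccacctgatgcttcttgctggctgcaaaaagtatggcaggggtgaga
TLR3 probe 1: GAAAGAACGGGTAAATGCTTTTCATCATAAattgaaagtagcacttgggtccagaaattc
TLR3 probe 2: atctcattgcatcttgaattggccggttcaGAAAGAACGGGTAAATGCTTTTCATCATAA
CD14 probe 1: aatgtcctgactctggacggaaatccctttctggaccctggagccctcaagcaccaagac
The TLR2 probes lie at bases 2168 to 2227 and 2062 to 2121 of the sheep mRNA record that the array lists, and the TLR4 probes at bases 1776 to 1835 and 1957 to 2016 of theirs, so each pair reads separate stretches. The probes of TLR3 share 30 bases, the first 2 probes of TLR6 share 20, and probes 1 and 2 of CD14 share 59, so these pairs are partly or almost wholly the same measurement. The files place probes on transcript records and not on a genome, so no chromosome position is given.

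Levels below are the log2 of the processed spot signal minus the 75th percentile of its array, so a probe at 0 is as bright as that percentile. Of 15208 gene spots on an array, 11091 to 11539 were well above background on the corneal arrays and 11785 to 12414 on the epidermal arrays, and no spot was saturated. Arrays of 1 group correlated at 0.995 to 0.998, and arrays of different groups at 0.968 to 0.969. On the 1 slide that held all 6 arrays, the corneal ones occupied row 2 and the epidermal ones row 1, and effects of row and of cell type cannot be told apart. Fewer expressing cells and less RNA per cell cannot be told apart in these bulk samples.

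Of the 22 probes, 12 were well above background on all 6 arrays and 10 on 0 arrays. The 12 belong to TLR2, TLR3, TLR4, TLR6 and CD14. The 10 belong to TLR1, TLR5, TLR7, TLR8, TLR9 and TLR10. By this mark, each probe was above background on every array or on none. The scanner's laxer mark, "positive and significant", was met by TLR7 probe 1 on 3 corneal and 3 epidermal arrays. TLR7 probe 2 met it on 1 and 0, TLR8 probe 1 on 1 and 1, and the TLR1 probe on 1 and 2. TLR10 probe 1 met it on 0 and 1, TLR10 probe 2 on 0 and 3, and both TLR9 probes on 0 and 2. The TLR5 probe and TLR8 probe 2 met it on 1 and 3. Over all genes and transcripts tested with limma (corneal minus epidermal, Benjamini-Hochberg adjusted p under 0.05), 59.3% passed, 26.7% as higher and 32.6% as lower in corneal cells. Against this background, 3 of the 5 measured members were higher in corneal cells (TLR2, TLR3 and TLR4), 1 was lower (CD14) and 1 did not pass (TLR6). By probe, 6 of the 12 were higher and 3 lower, where 26.7% and 32.9% of all kept probes were.

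**Figure D1:**
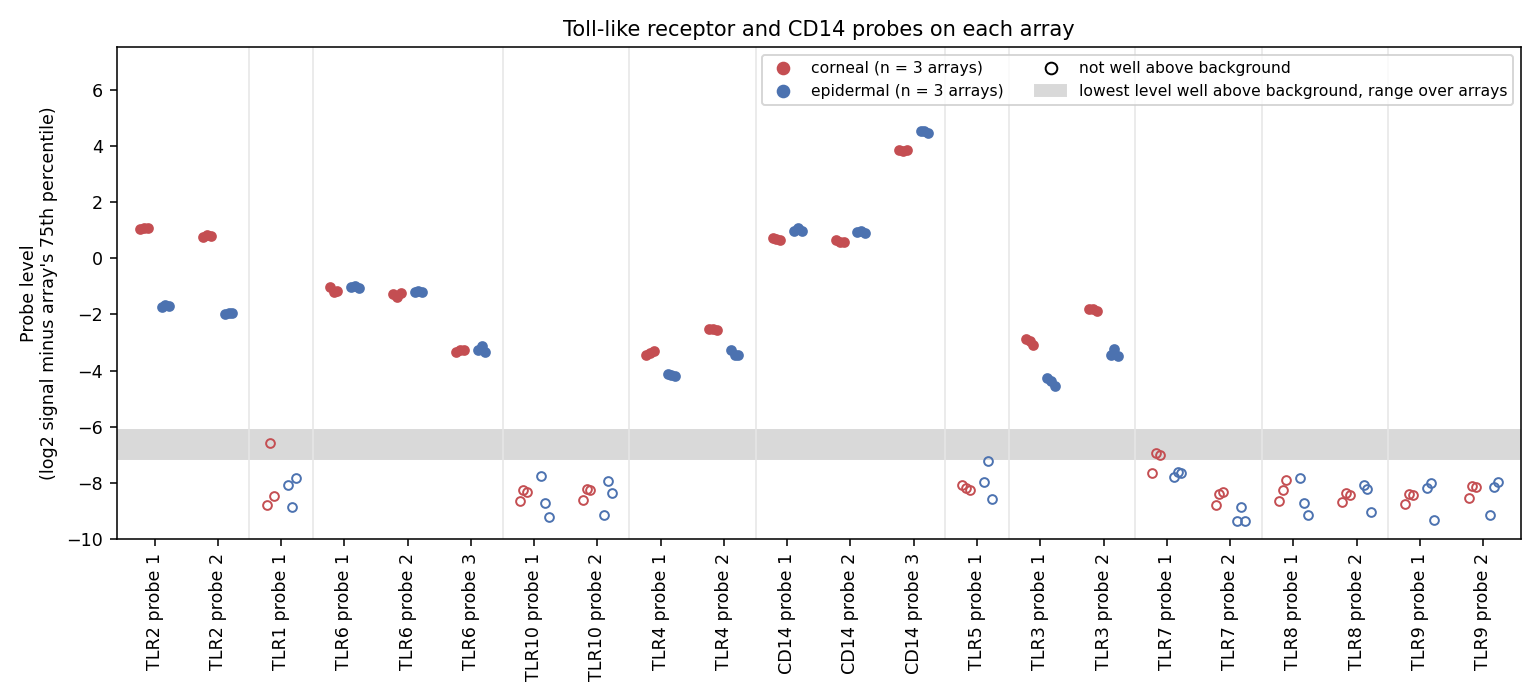
Level of each of the 22 probes (vertical axis, log2 signal minus the array's 75th percentile) on each of the 3 corneal and 3 epidermal arrays, 1 point an array, with open points for probes not well above background in that group. The probes of TLR2, TLR3 and TLR4 are higher on all corneal arrays, those of CD14 on all epidermal arrays, and the 10 probes of TLR1, TLR5 and TLR7 to TLR10 stay near or under the grey band, the range over arrays of the lowest level that counted as well above background.

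Among the measured surface receptors, TLR2 had the largest change. TLR2 probe 1 had levels of 1.03, 1.09 and 1.07 in corneal cells, against −1.74, −1.65 and −1.70 in epidermal stem cells. Every corneal array lay far above every epidermal array, and the groups did not overlap. As processed signal before scaling, the same probe read 1852, 1925 and 1868 in corneal cells and 332, 305 and 301 in epidermal stem cells. The change was 2.76 ± 0.04 on the log2 scale (SE, n = 3 arrays each), a 6.78-fold higher level in corneal cells with a 95% interval of 6.38 to 7.20 (limma, adjusted p = 2.68e-07). Of the 11242 genes and transcripts tested, 144 (1.28%) had a larger change in either direction, and the median size over all of them was 0.24.

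TLR2 also had the most repeated measurement. Probe 1 was printed 5 times on each array, and the SD between its spots was 0.085 to 0.10 on the corneal arrays and 0.063 to 0.084 on the epidermal arrays. The lowest corneal spot, at 0.93, stood above the highest epidermal spot, at −1.57. Probe 2, which reads another stretch of the transcript, gave 0.76, 0.82 and 0.78 in corneal cells and −1.97, −1.96 and −1.96 in epidermal stem cells. Its change of 2.75 ± 0.03 (SE, adjusted p = 1.64e-07 among all kept probes) differed from that of probe 1 by less than either standard error.

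**Figure D2:**
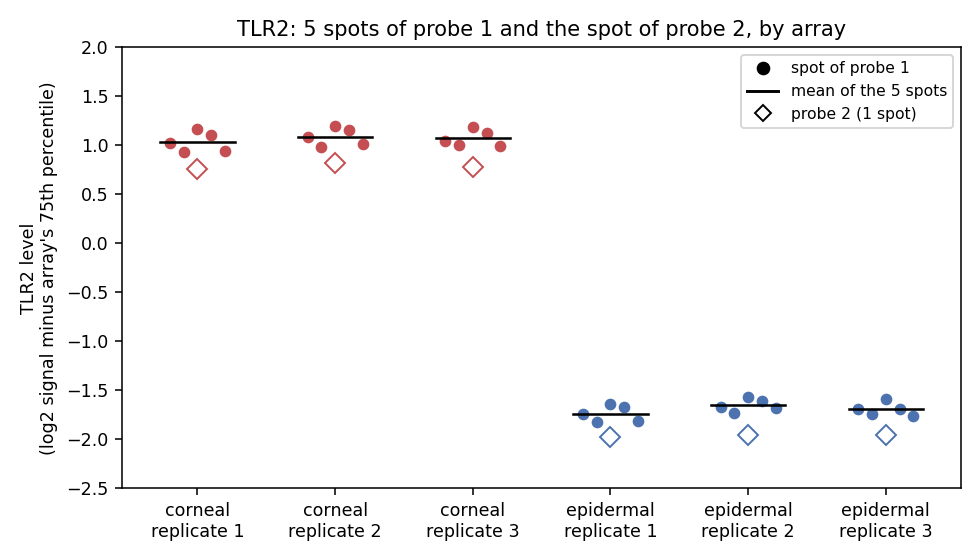
Level of TLR2 (vertical axis, log2 signal minus the array's 75th percentile) on each array, with filled points for the 5 spots of probe 1, a line for their mean and an open diamond for the 1 spot of probe 2. The corneal spots of probe 1 lie between 0.93 and 1.20 and the epidermal ones between −1.83 and −1.57, so the spread between spots is small beside the gap between cell types.

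TLR6, a partner of TLR2, was measured in both cell types at levels that did not differ past the threshold. Probe 1 had levels of −1.03, −1.20 and −1.15 in corneal cells, against −1.01, −0.99 and −1.04 in epidermal stem cells. The lowest epidermal array lay just under the highest corneal one, so the groups overlapped. The change was −0.12 ± 0.05 (SE, adjusted p = 0.110), with a 95% interval of 0.84 to 1.01 for the ratio of corneal to epidermal level. Probes 2 and 3 changed by −0.11 and −0.04 (adjusted p = 0.0908 and 0.531). The result rested on 1 library and on the scaling, since probe 1 passed without corneal replicate 1 (−0.17, adjusted p = 0.0217) and with no scaling between arrays (−0.29, adjusted p = 0.0248).

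TLR1, the other known partner of TLR2, had 1 probe, which was not well above background on any array. Its levels were −8.79, −6.57 and −8.45 in corneal cells and −8.07, −8.85 and −7.82 in epidermal stem cells. The array's annotation lists the TLR1 record also for all 3 probes of TLR6, so the TLR6 signal may hold TLR1 transcripts, and the share of each was not tested. TLR10, a receptor whose ligand is less settled, had 2 probes that read between −8.65 and −8.22 in corneal cells and between −9.19 and −7.76 in epidermal stem cells, none of them well above background.

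The lipopolysaccharide receptor TLR4 was higher in corneal cells while its co-receptor CD14 was lower. TLR4 probe 2 had levels of −2.51, −2.51 and −2.55 in corneal cells, against −3.25, −3.43 and −3.45 in epidermal stem cells. All corneal arrays stood above all epidermal arrays. The change was 0.86 ± 0.06 (SE), or 1.82-fold (95% interval 1.64 to 2.01, limma adjusted p = 0.000105). Probe 1, on a separate stretch, read −3.44, −3.36 and −3.31 in corneal cells and −4.10, −4.16 and −4.20 in epidermal stem cells, a change of 0.78 ± 0.05 (SE, adjusted p = 5.42e-05 among all kept probes).

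CD14 was read by 3 probes, which gave the same direction and different sizes. Probe 1 had levels of 0.71, 0.70 and 0.66 in corneal cells, against 0.96, 1.06 and 0.98 in epidermal stem cells. Probe 2, which shares 59 bases with it, had 0.64, 0.56 and 0.58 in corneal cells, against 0.92, 0.96 and 0.91 in epidermal stem cells. In both, every epidermal array exceeded every corneal array. The changes were −0.30 ± 0.04 and −0.34 ± 0.04 (SE, adjusted p = 0.00113 and 0.000562 among all kept probes), that is 1.24- and 1.26-fold higher in epidermal stem cells.

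CD14 probe 3 is named by a consensus sequence that the array describes as CD14 antigen, and it lies at bases 2750 to 2809 of that sequence. It read 3.85, 3.82 and 3.84 in corneal cells, against 4.52, 4.52 and 4.46 in epidermal stem cells, again with no overlap. Being the brightest, it stood for CD14 in the fit over genes, with a change of −0.66 ± 0.03 (SE) and a 1.58-fold higher level in epidermal stem cells (limma, adjusted p = 2.25e-05). Its 95% interval, −0.74 to −0.59, does not meet those of probe 1 (−0.40 to −0.21) and probe 2 (−0.42 to −0.25). All 3 probes thus gave the same direction, though probes 1 and 2 are almost wholly the same measurement, and the size depends on the probe. That probe 3 reads the CD14 transcript rests on the array's description alone and was not tested.

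TLR5, the flagellin receptor, had 1 probe with levels of −8.06, −8.19 and −8.23 in corneal cells and −7.96, −7.21 and −8.56 in epidermal stem cells, not well above background on any array. The groups overlapped, and values at this depth of signal have no order.

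Among the endosomal receptors, only TLR3 was measured on these arrays. TLR3 probe 2 had levels of −1.81, −1.79 and −1.89 in corneal cells, against −3.44, −3.24 and −3.49 in epidermal stem cells. The groups did not overlap. The change was 1.56 ± 0.07 (SE), or 2.94-fold higher in corneal cells (95% interval 2.59 to 3.35, limma adjusted p = 2.55e-05), and 3.67% of the genes and transcripts tested had a larger one in either direction. Probe 1 read −2.86, −2.94 and −3.08 in corneal cells and −4.27, −4.35 and −4.56 in epidermal stem cells, a change of 1.43 ± 0.09 (SE).

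TLR7, TLR8 and TLR9, which bind RNA or DNA and are best known from immune cells, had 6 probes in all and none was well above background on any array. The brightest, TLR7 probe 1, read −7.64, −6.91 and −7.00 in corneal cells and −7.77, −7.61 and −7.64 in epidermal stem cells. Over the 10 probes of the 6 unmeasured receptors, levels ran from −8.79 to −6.57 in corneal cells, with a median of −8.31, and from −9.35 to −7.21 in epidermal stem cells, with a median of −8.18. The lowest level that counted as well above background was −6.57 to −6.12 on the corneal arrays and −7.14 to −6.65 on the epidermal arrays, and the median negative control spot read −8.62 to −8.22 and −9.16 to −8.69 on them. These receptors were thus not well above background, which does not show that they are absent. TLR7 probe 1 met the laxer mark on 3 corneal and 3 epidermal arrays. Under the laxer mark "positive and significant", TLR1, TLR5, TLR7, TLR8 and TLR10 could be tested as well, and their adjusted p ranged from 0.108 for TLR7 to 0.873 for TLR8.

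The changes of TLR3, TLR4 and CD14 depended on the background correction, as did the calls of most genes. With normexp over all spots, 388 genes were called, against 6664 as reported. In that setting TLR3, TLR4 and CD14 changed by 0.51, 0.08 and −0.43 and none passed (limma, adjusted p = 0.580, 0.928 and 0.488). TLR2 kept its call at 2.23 (adjusted p = 0.0179). The same correction was also run without the 8 spots of epidermal replicate 1 whose local background was extreme. TLR3, TLR4 and CD14 then changed by 1.16, 0.65 and −0.66 and all passed (adjusted p = 3.29e-06, 2.92e-06 and 1.47e-06).

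**Figure D3:**
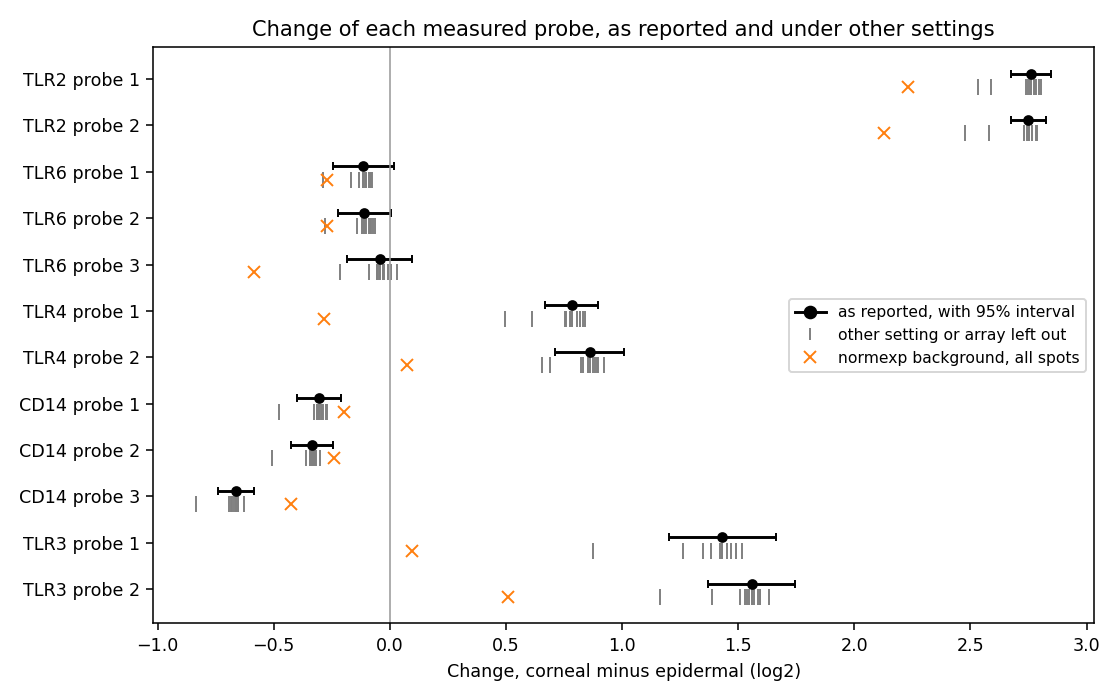
Change of each of the 12 measured probes (horizontal axis, corneal minus epidermal, log2), with the value as reported and its 95% interval in black, other settings and left-out arrays as grey ticks, and normexp background correction over all spots as orange crosses. TLR2, TLR3 and TLR4 lie right of 0 and CD14 left of it in each setting shown, apart from TLR4 probe 1 at −0.29 with normexp, and the TLR6 probes lie between −0.58 and 0.029.

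The genes whose profiles over the 6 arrays were most like those of the measured receptors were taken from 541 genes with a symbol that were well above background on all arrays. Likeness was the root mean square difference between centred profiles, a log2 quantity that mostly picks genes of equal change. Closest to TLR2 were ANKRD1, NTN4, ESR1, TTR and GLP1R, with differences of 0.079 to 0.18 and changes of 2.42 to 2.94. Closest to TLR3 were IGFBP2, PTGS2, MX2, SLC2A3 and BMP4 (0.073 to 0.092). Closest to TLR4 were CREM, FZD2, BMPR1B, SOD2 and SLCO2A1 (0.067 to 0.076). Closest to TLR6 were SMO, POLR2G, NFKBIA, CTNNBL1 and RTP4 (0.0068 to 0.035), and closest to CD14, by its probe 3, were PTGFR, FHIT, APOBEC3F, PGD and CDK2 (0.023 to 0.040).

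Downstream of the receptors, 86 genes of Toll-like receptor signalling were looked for, 33 had a probe under their name and 27 could be tested. Of these 27, 12 were higher in corneal cells, 9 were lower and 6 did not pass, and their median change was 0.03, beside −0.04 over all genes and transcripts tested, of which 26.7% were higher and 32.6% lower. The balance depended on the scaling, since 7 were higher and 12 lower when arrays were not scaled. With normexp background correction over all spots, 3 were higher and 3 lower. Among genes well above background on all 6 arrays, 11 were higher and 8 lower. None of the 8 genes listed for lipopolysaccharide delivery and as accessory proteins, among them LY96 and LBP, had a probe under its name. Nor had IRAK1, TRAF6, TIRAP or NFKB1, which are not analysed here.

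Of the adaptors, only MYD88, which most receptors share, had a probe under its name. It read −5.03, −5.19 and −4.92 in corneal cells and −4.86, −4.62 and −4.75 in epidermal stem cells, a change of −0.30 ± 0.09 (SE, adjusted p = 0.0353). Its call ended without corneal replicate 1 or 2 or epidermal replicate 2 or 3 (−0.31, −0.23, −0.24 and −0.30, adjusted p = 0.0776, 0.0840, 0.0912 and 0.0857), and with normexp without the extreme spots its change was −0.02. Of the 4 tested kinases and ubiquitin ligases, TRAF3 was lower (−0.41 ± 0.07, SE, adjusted p = 0.00344). IRAK4, the kinase that MYD88 recruits, was higher by 0.12 ± 0.03 (SE, adjusted p = 0.0266), with a change of −0.05 when arrays were not scaled. UBE2N, a ubiquitin-conjugating enzyme, was higher by 0.11 ± 0.04 (SE, adjusted p = 0.0400), with −0.06 when arrays were not scaled and −0.18 in its other probe. The calls of IRAK4 and UBE2N each ended without any 1 of the 3 corneal arrays (IRAK4 0.11, 0.12 and 0.13, UBE2N 0.11, 0.11 and 0.12) and without epidermal replicate 3 (0.09 and 0.09), and that of UBE2N also without epidermal replicate 2 (0.11). IKBKB did not pass (−0.35, adjusted p = 0.0639) but did without corneal replicate 3 (−0.48, adjusted p = 0.00852).

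Of the 4 tested transcription factors, RELA, the p65 subunit of NF-kB, read 2.54, 2.54 and 2.59 in corneal cells and 2.28, 2.28 and 2.31 in epidermal stem cells and was higher by 0.27 ± 0.03 (SE, adjusted p = 0.000652), which ended when arrays were not scaled (0.10, adjusted p = 0.270). JUN and FOS, which form AP-1, were lower by −0.25 and −0.52 (adjusted p = 0.00819 and 0.00158), and IRF3 did not pass. The call of FOS, a dim gene, ended with normexp without the extreme spots (−0.07, adjusted p = 0.332). Of the inhibitors, NFKBIB was higher by 0.18 (adjusted p = 0.0128), which ended when arrays were not scaled (0.0064, adjusted p = 0.958). NFKBIA, which holds NF-kB in the cytoplasm, was lower by −0.15 (adjusted p = 0.0356), a call that ended without corneal replicate 2 or 3 or epidermal replicate 1 or 2 (−0.12, −0.15, −0.14 and −0.15).

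Genes that Toll-like receptors are known to induce changed in both directions. Of 17 with a probe, 11 were tested, 6 were higher in corneal cells, 4 were lower and 1, ICAM1, did not pass. Over all genes and transcripts tested, 26.7% were higher and 32.6% lower, so calls in both directions are common in these data. TNF, an inflammatory cytokine, read −7.68, −8.29 and −8.34 in corneal cells, not well above background, against −1.59, −1.69 and −1.63 in epidermal stem cells. In corneal cells it was at least 25.7-fold lower by processed signal (the fitted change had a limma adjusted p = 3.71e-06). This came from 1 of its 2 probes, the other being above background on too few arrays to be kept. With normexp, the change of TNF was smaller, −2.70 over all spots and −2.42 without the extreme spots. The minimum thus holds for the processed signal only, and the size depends on the background correction. TNF was kept through the epidermal arrays alone, where it is high, so its place among the lower genes is not independent of the filter. With no filter on dim probes its fitted change had an adjusted p = 1.84e-05. A bound sets the mean of the brighter group against the lowest signal that counted as well above background in the dimmer one. Where the probe's own level on an array of the dimmer group was higher than that signal, its own level was used.

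IL6 and IL1A were also lower in corneal cells. IL6 read −0.60, −0.67 and −0.36 in corneal cells and 0.20, 0.25 and 0.17 in epidermal stem cells (change −0.76 ± 0.09, SE, adjusted p = 0.000719). IL1A changed by −1.56 ± 0.05 (SE, adjusted p = 6.15e-06), and CXCL8, the neutrophil chemokine, by −0.29 ± 0.03 (SE, adjusted p = 0.000519).

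PTGS2, the inducible enzyme of prostaglandin synthesis, read 4.67, 4.62 and 4.62 in corneal cells and 3.09, 3.11 and 3.08 in epidermal stem cells, 2.91-fold higher in corneal cells (adjusted p = 1.1e-06). The colony-stimulating factors CSF2 and CSF3 were higher by 1.23 and 1.79 (adjusted p = 2.28e-06 and 0.00627). CSF3 was well above background on 1 of 3 epidermal arrays, and its change was 0.40 (adjusted p = 0.000733) with normexp without the extreme spots, so its size depends on the background correction. CSF3 was kept through the corneal arrays, where it is high, so its place among the higher genes is not independent of the filter. With no filter on dim probes its fitted change had an adjusted p = 0.0124. SOD2 and SAA3 were higher by 0.92 and 0.87 (adjusted p = 6.66e-06 and 5.18e-05), and IL1B by 0.24 (adjusted p = 0.0015), which ended when arrays were not scaled (0.06, adjusted p = 0.455). With normexp over all spots, CSF3 and IL1B had changes of −0.59 and −0.59, and neither passed. CXCL10, VCAM1, SELE, IL10, IL12B and LTF were above background on too few arrays to be tested.

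Of the host molecules known to act on TLR2 and TLR4, 5 were tested. The matrix proteoglycan biglycan (BGN) read 1.06, 1.08 and 1.01 in corneal cells and −0.24, −0.36 and −0.26 in epidermal stem cells, a change of 1.34 ± 0.04 (SE, adjusted p = 6.42e-06). Fibronectin (FN1) was higher by 0.95 ± 0.03 (SE, adjusted p = 7.98e-06). HSPA1A, HSP90AA1 and DCN did not pass, though decorin (DCN) changed by −0.18 and passed without epidermal replicate 1 (adjusted p = 0.0115), beside 0.07 with it. The other probe of DCN changed by −0.44.

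**Figure D4:**
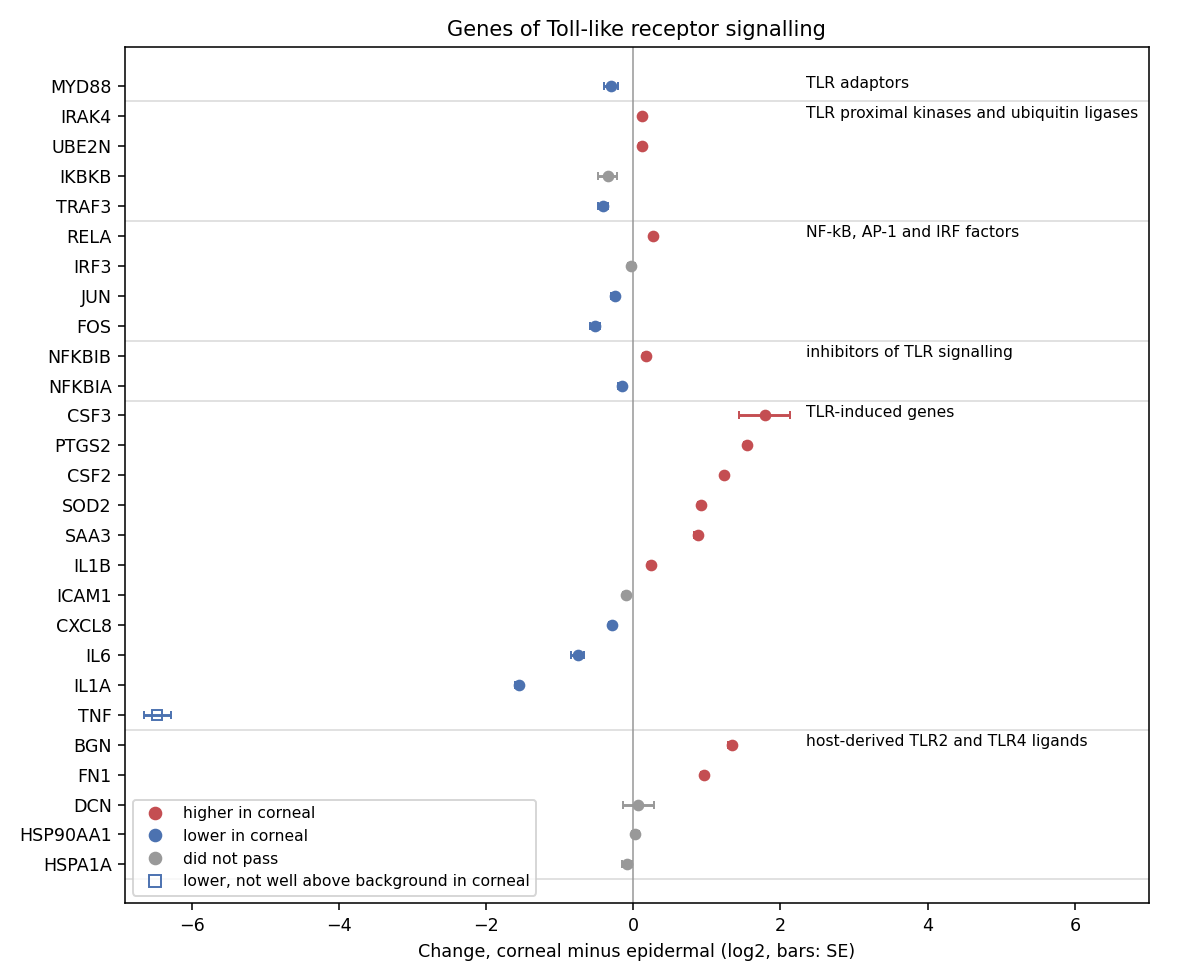
Change of each of the 27 tested genes of Toll-like receptor signalling (horizontal axis, corneal minus epidermal, log2, bars SE), grouped by role, in red for higher and blue for lower in corneal cells and in grey where the test was not passed. TNF, drawn as an open square at its fitted change, has only a bound, and the remaining signalling genes lie between −1.56 (IL1A) and 1.79 (CSF3).

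CD14 and several Toll-like receptors are also known from myeloid cells, so markers of other cell types were set beside them. Of 16 leukocyte markers, 6 had a probe and 3 were tested, with 0 higher, 0 lower and a median change of −0.16. The signalling adaptors TYROBP and FCER1G were measured on all arrays (changes −0.16 and −0.04, adjusted p = 0.113 and 0.472). ITGAM was well above background on 0 arrays, and ITGB2 and LYZ on 0 corneal and 2 epidermal arrays. The summed level of the list, in multiples of the array's 75th percentile, was 0.673 to 0.722 in corneal and 0.726 to 0.858 in epidermal arrays. That range was slightly lower in corneal arrays, though none of the 3 tested markers passed. The part of leukocytes in the change of CD14 was not tested.

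The markers of basal keratinocytes went against the labelled cell types, whose names are used here as the labels give them. Of 8 markers of basal keratinocytes, 5 had a probe and all 5 read at or near background, and TP63 and KRT19 were well above background on 0 arrays. KRT5 and KRT14 were so on 0 corneal and 2 epidermal arrays, and KRT15 on 1 corneal and 3 epidermal arrays. The summed level of these markers was 0.0304 to 0.0379 in corneal and 0.0429 to 0.0434 in epidermal arrays. Of the corneal epithelial markers only PAX6, an eye transcription factor, had a probe, and it was higher in corneal cells by 0.31 ± 0.07 (SE, adjusted p = 0.0129). PAX6 was well above background on 3 corneal and 3 epidermal arrays, so it was measured in both groups. It read −2.48, −2.23 and −2.36 in corneal cells and −2.68, −2.61 and −2.70 in epidermal stem cells.

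Fibroblast markers were bright in both groups. Vimentin (VIM) averaged 8.60 ± 0.02 in corneal and 8.65 ± 0.13 in epidermal arrays (SD, n = 3 each), and DCN averaged 8.15 ± 0.03 and 8.07 ± 0.44 in them (SD, n = 3 each). COL3A1, a fibrillar collagen chain, read 2.34, 2.29 and 2.30 in corneal cells, against 6.74, 6.87 and 6.85 in epidermal stem cells, and was 22.8-fold lower in corneal cells (change −4.51 ± 0.05, SE, adjusted p = 1.71e-07, with −5.32 in its other probe). PDGFRA and LUM were lower by −0.51 and −0.39 (adjusted p = 8.91e-05 and 0.000408). Of the 7 with a probe, 0 were higher in corneal cells, these 3 were lower and 4 did not pass. Beside them, 26.7% of all genes and transcripts tested were higher and 32.6% lower. The summed level of the 7 was 836 to 856 in corneal and 841 to 1059 in epidermal arrays. Of 6 endothelial markers, VWF and TIE1 were kept, through the epidermal arrays alone, so their being lower in corneal cells is not independent of the filter. As a description, VWF was at least 1.46-fold and TIE1 at least 1.12-fold lower in corneal cells, where neither was well above background. PECAM1, CDH5 and TEK were well above background on 0 arrays. How far the makeup of the cultures enters the receptor differences was not tested.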

How the data were processed

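Cy3-labelled RNA from 6 samples was measured on Agilent sheep arrays, per the labels' protocols. The submitters' processing notes name Agilent Feature Extraction 10.7 as the source of the deposited spot intensities, with background subtracted and dim spots given surrogate values, per the file headers. The authors also deposited log2 values, which had a median of 7.23 on every array and equal ranks within 0.020 of each other. How they were made is not given in the sources used, and they served as an alternative.

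Outlier spots were dropped, so that 19 probes lacked a value on some array. Log2 processed signals minus the array's 75th percentile were averaged over the spots of a probe. Probes well above background on at least 3 of 6 arrays were kept (11742 of 15008). A gene was its kept probe of highest mean. Names came from the arrays' annotation and RefSeq sheep genes (ARS-UI_Ramb_v3.0, names only), and 13661 probes stayed unnamed. limma 3.58.1 in R 4.3.3 (lmFit, eBayes, no block) tested corneal minus epidermal over 11242 genes and transcripts with Benjamini-Hochberg adjustment at 0.05, and was tested on simulated data. The number of arrays limits the precision.

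The members and gene lists were chosen with earlier results of these data known. Named were all members, the 3 called genes of each signalling list with the largest change, a set list of signalling genes, the 5 genes most like each measured member, and the 2 brightest markers of each cell type. Other genes of these lists were named after their values were seen. Background correction, scaling, filters, a replicate block and leaving out each array were tried as alternatives. Some probe sequences are not reported here.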

Additional observations from a re-analysis of the deposited data

How the results depend on the processing

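Over the 12 member probes and 18 alternatives, 204 of 216 values kept their direction and their side of the threshold. Of the rest, 6 kept their direction but no longer passed, 3 newly passed and 3 turned. Other filters, outlier spots kept, every probe as a feature and the replicate block could not move the change of a member probe. In those settings its direction was fixed in advance and only its p-value could differ. TLR4 probe 1, among those that turned, also no longer passed (limma, adjusted p = 0.780). TLR2 kept its call in all 18 (2.23 to 2.80, adjusted p up to 0.0179). These 6 losses and that of TLR4 probe 1 came with normexp over all spots. That setting left 388 called genes, 181 higher and 207 lower, against 6664, and 3 higher and 3 lower signalling genes. There CD14 changed by −0.43, TLR4 probe 1 by −0.29, NFKBIA by 0.039, NFKBIB by −0.059, IL1B by −0.59 and CSF3 by −0.59. Without the 8 spots of extreme background, normexp called 6767 genes, with 3679 higher and 3088 lower, and TLR6 probe 3 changed by 0.029, IKBKB by 0.027 and IRF3 by 0.0098. With median centring, IRF3 changed by 0.0060. With no scaling, all genes shifted by −0.21 at the median, against −0.04, and 1442 genes were higher and 5040 lower, against 2997 and 3667. In that setting 7 signalling genes were higher and 12 lower, against 12 and 9, and IRAK4 changed by −0.050, UBE2N by −0.058, DCN by −0.10 and HSP90AA1 by −0.14. With the laxer mark of detection, 10 member genes had a kept probe. Leaving out single arrays gave −0.091 to 0.0069 for TLR6 probe 3, −0.18 to 0.21 for DCN and −0.0042 to 0.080 for HSP90AA1. The cause of these moves was not tested, beyond the left-out spots. Deviations of same-numbered arrays correlated at 0.017, −0.029 and 0.038. The labels do not say whether the numbers pair the samples. These correlations cannot decide it, since the spread within a group may be technical. With a replicate block 5947 genes were called, TLR2 at 2.76 (adjusted p = 0.000159) and CD14 at −0.66 (adjusted p = 0.00139). Of the members and signalling genes, MYD88, IRAK4, UBE2N and NFKBIA lost their call with it, and other named genes are not covered by this count. Calls of MYD88, UBE2N, NFKBIA and IRAK4 held in 7, 8, 10 and 11 of 18 alternatives. Surrogate signals of dim spots limit what can be said of the 6 receptors at background. Groups of 3 arrays were not searched for outlying samples.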
